A study of Homo sapiens with 24 samples.

Results

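Gene expression after 12 h in 1% oxygen was compared between a stable line carrying a short hairpin RNA against HIF1A (shHIF1A, 2 arrays) and the control line carrying a hairpin against GFP (shGFP, 2 arrays). The arrays were taken by their titles, 4 of the 24 in the series, and the labels call both lines Huh-7, an established cell line from a human liver tumour. Each hairpin had been delivered by lentivirus, and the labels give 1 line per target with no number of hairpins or clones. The same 2 lines after 3 h (n = 3 arrays each) and 6 h (n = 2 each), and a line with a hairpin against NDRG3 after 12 h (shNDRG3, n = 2), were used for comparison. The shGFP line in normoxia and after 24 h of hypoxia (n = 2 each) served to choose hypoxia-responsive genes. Knockdown lines in normoxia were not analysed here. No label ties the arrays of a group to different cultures, so a p-value here reflects the spread among arrays, and that spread may be technical.

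HIF1A encodes the oxygen-regulated subunit of hypoxia-inducible factor 1. In oxygen, prolyl hydroxylases mark the protein for destruction through VHL. In hypoxia it accumulates, pairs with ARNT and binds short DNA motifs near genes for glucose uptake, glycolysis, mitochondrial turnover, matrix modification and angiogenesis. A separate pathway that proved prominent in these arrays is the interferon response, in which RNA sensors such as RIGI and IFIH1 induce interferon, and transcription factors then switch on antiviral genes through a motif called the interferon-stimulated response element.

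Values are probe signals after quantile normalization, with an array median of 130.92, and 15246 genes were tested. Arrays within the shHIF1A pair and within the shGFP pair correlated across genes at r = 0.9958 and r = 0.9970, and the 4 pairs between lines at 0.9767 to 0.9795. Changes are log2 differences, shHIF1A minus shGFP, with the standard error from limma after ±, and a gene passed at a Benjamini-Hochberg adjusted p under 0.05 over all genes tested. Precision is limited by how few arrays there are per group, and the spread behind each error was pooled over all groups of the series. A gene whose signal in 1 group lies under 1.5 times the array median (under 196) is dim there, so its fold is printed as a bound (at least), against that level; ranks, list medians and plotted values use the differences as measured.

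HIF1A itself had a signal of 666 and 526 on the shHIF1A arrays, against 1631 and 1533 on the shGFP arrays. Both shHIF1A arrays lay below both shGFP arrays, and the transcript was 2.67-fold lower (log2 -1.42 ± 0.18, adjusted p = 1.722e-06). Among its other probes, 1 gave -1.05 (adjusted p = 0.006224) and a dimmer one gave -0.56 (adjusted p = 0.1423). A residual HIF1A signal above the array median remained in shHIF1A. Of the other oxygen-sensing genes, EGLN1, the main prolyl hydroxylase, fell by 0.75 and ARNT2, a relative of the dimer partner, fell by 0.75, while ARNT (-0.11), EPAS1 (-0.10), which encodes another oxygen-regulated subunit, and VHL (0.12) did not pass. In the NDRG family 0 of 4 members passed, with NDRG3 at 0.16, NDRG1 at -0.12, NDRG2 at 0.05 and NDRG4 at -0.01. NDRG2 and NDRG4 lay near the array median.

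The cell label was compared with marker genes. Of 7 measured hepatocyte markers (ALB, AFP, APOA1, TTR, TF, FGB and SERPINA1), 0 exceeded 2 times the array median in either line, and all lay between -0.48 and 0.92 on the log2 scale relative to it. CPS1, a urea cycle enzyme abundant in hepatocytes, was bright, at 23066 and 23712 on the shHIF1A arrays against 18081 and 17643 on the shGFP arrays. Because the defining secreted liver proteins were near the array median, the cells are called by their line labels below and by no tissue name. Of markers of other cell types, 1 of 6 for fibroblasts (COL1A1) and 1 of 5 for blood cells (CD68) exceeded that bound in both lines. For endothelium 1 of 5 (PECAM1) exceeded it in shHIF1A and 0 of 5 in shGFP. PECAM1 lay close to the bound in both lines, at 1.13 and 0.96 in shHIF1A against 0.97 and 0.91 in shGFP on that log2 scale. The summed signal of the blood markers was 3722 to 3825 in shHIF1A and 10072 to 10905 in shGFP, carried by CD68, a lysosomal protein, at 3293 and 3237 against 10336 and 9497. PTPRC, which marks all leukocytes, and CD3D, a T cell marker, lay at or below the array median in both lines, and CD14 and CSF1R within 0.46 of it on the log2 scale.

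At 12 h 3556 of 15246 genes passed (23.3%), 1666 higher (10.9%) and 1890 lower (12.4%) in shHIF1A than in shGFP. The changes downward were larger: 341 genes were at least 2-fold lower and 81 at least 2-fold higher, and 66 were at least 4-fold lower with 0 at least 4-fold higher. Without 1 of the 4 arrays the number past the threshold was 2255 (without the second shGFP array) to 2642, and without the first shHIF1A array it was 2345. The arrays of the 2 lines did not overlap for 60.8% of all genes tested, so non-overlap alone sets a gene apart from few others.

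Interferon-stimulated genes filled most places among the 12 lowest genes. OAS2, which makes the oligoadenylate messenger that activates RNase L, had a signal of 196 and 185 on the shHIF1A arrays and of 12102 and 12079 on the shGFP arrays. It was at least 61.6-fold lower, near the array median in shHIF1A and among the brighter probes in shGFP (measured log2 difference -5.99 ± 0.14, adjusted p = 6.863e-19). IFIT1, which binds foreign RNA caps, followed at 1544 and 1578 against 27615 and 30330 (-4.21 ± 0.31), then IFI44L at 281 and 362 against 5647 and 5767 (-4.16 ± 0.14). Others were the mitochondrial protein IFI27 (-3.76), IFIT3 (-3.72), OASL (-3.49) and IFI44 (-3.33), with the antiviral GTPase MX2 at least 9.54-fold and TRIM22 at least 4.78-fold lower. MX2 (122 and 137) and TRIM22 (86 and 100) lay around or below the array median in shHIF1A, so their places rest on a dim signal. The remaining 3 were GDF15, SLC15A3 and CCL5, and listing them apart does not class them as unrelated to interferon. GDF15, a secreted stress hormone, was at 1015 and 1160 against 16693 and 17049 (-3.96 ± 0.17). SLC15A3, a lysosomal peptide transporter, was at 117 and 117 against 1767 and 1765 (at least 8.99-fold lower), and the chemokine CCL5 fell by 3.30.

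The 12 highest genes changed less, by 1.41 to 1.71 on the log2 scale. DIO2, the deiodinase that activates thyroid hormone, had a signal of 2578 and 2128 in shHIF1A, against 689 and 748 in shGFP (1.71 ± 0.11, 3.27-fold). DANCR, a long noncoding RNA that hosts small nucleolar RNAs, stood at 1108 and 1009 against 354 and 332 (1.62 ± 0.12). TBL1X, a corepressor subunit, was at 7012 and 5362 against 2100.0 and 1979 (1.59 ± 0.12). Vasoactive EDN2 (1.58, at least 2.26-fold), the protease inhibitor SERPINB3 (1.56), NT5DC2 (1.54), the phosphatase subunit PPP1R10 (1.53), the noncoding DLEU1 (1.49) and the serotonin receptor HTR3A (1.41) were also among them. HNRNPA1 (1.59) and HNRNPA1P10 (1.49) are a gene and its processed copy, whose probes may read the same RNA. For RNA28SN5, a ribosomal RNA, the shHIF1A arrays themselves differed (12218 and 4266, against 2775 and 2632 in shGFP), and the change no longer passed without the first of them (0.66, adjusted p = 0.303). The calls for DIO2, HTR3A and RNA28SN5 were not shared by another probe of the gene.

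**Figure D1:**
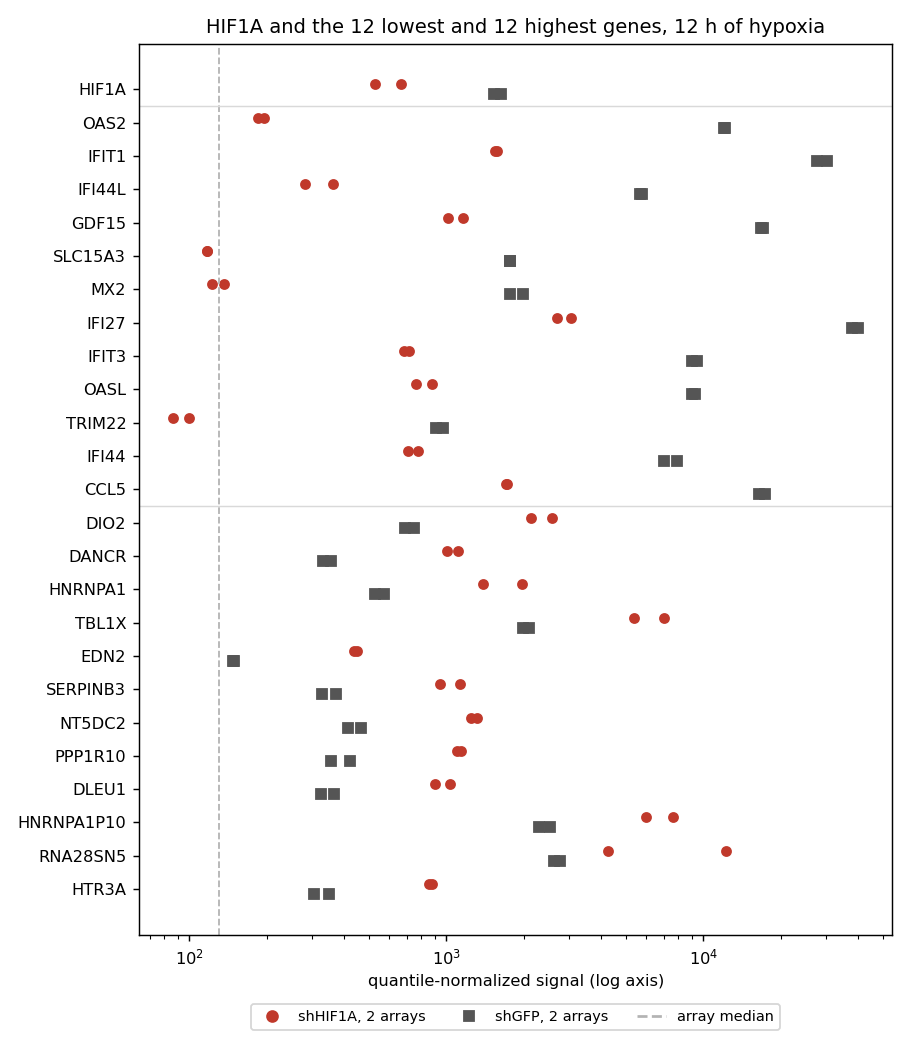
Quantile-normalized signal on a log axis of each 12 h array (circles, shHIF1A; squares, shGFP) for HIF1A and the 12 lowest and 12 highest genes. HIF1A lay at 526 to 666 in shHIF1A and 1533 to 1631 in shGFP, and OAS2 fell to 185 to 196 in shHIF1A, against 12079 to 12102 in shGFP.

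Genes known as HIF targets were lower as a group. Of 38 tested, 24 were lower and 0 higher, with a median change of -0.47, against 12.4% lower and a median of -0.0009 over all genes. Among those related to fuel storage and lipid, HILPDA, which inhibits lipid droplet breakdown, had a signal of 2510.3 and 2178 in shHIF1A, against 9784 and 8940 in shGFP (-2.0 ± 0.14, 4-fold lower). VLDLR, which takes up lipoproteins, was at least 1.74-fold lower and INSIG2, which holds back sterol synthesis, fell by 1.40. In the matrix class, P4HA2, a collagen prolyl hydroxylase, was at 2214 and 1948 against 6010 and 6780 (-1.62 ± 0.13). LOX, which cross-links collagen, fell by 0.68, PLOD1 and PLOD2, which hydroxylate collagen lysines, fell by 0.48 and 0.33, and P4HA1 fell by 0.31. The call for LOX was lost when arrays were centred on their medians (adjusted p = 0.0527) and without either of 2 arrays (0.0562 and 0.067). STC1, a secreted glycoprotein, fell by 1.82, and CA12, a carbonic anhydrase, fell by 1.04.

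Receptors for mitochondrial clearance were also lower. BNIP3 had a signal of 12585 and 13082 in shHIF1A, against 27310.1 and 26354 in shGFP (-1.06 ± 0.11), and its relative BNIP3L fell by 0.69. Of 13 mitophagy and autophagy genes, 8 were lower and 0 higher (median -0.51), including the cargo receptor SQSTM1 (-0.78), the autophagosome protein MAP1LC3B (-0.72) and OPTN (-0.57). The oxygen-dependent histone demethylase KDM3A fell by 0.79. Of 12 demethylases of that kind 3 were lower and 0 higher. That is 25% past the threshold, against 23.3% of all genes in either direction and 12.4% lower. KDM4C, another of them, passed narrowly (-0.39, limma adjusted p = 0.04635). Its call was lost with arrays centred on their medians, with intensities as deposited, without a filter on low values and with a replicate block. Its change was -0.20 without the first shHIF1A array, and -0.40 and -0.38 without the first and second shGFP array. Several classical hypoxia genes did not pass: VEGFA, the main angiogenic factor, was at 997 and 1021 in shHIF1A against 1410.1 and 1329 in shGFP (-0.44 ± 0.19, adjusted p = 0.1101), and ADM was at -0.15, ANGPTL4 at 0.14, EGLN3 at 0.27 and DDIT4 at 0.31. VEGFA passed in the mean of all its probes (-0.52, adjusted p = 0.0238), and its dimmer probe gave -0.60 (limma adjusted p over all kept probes 0.007543). It also passed in a fit of only the compared arrays (adjusted p = 0.002703) and with array weights (adjusted p = 0.009795).

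Glycolytic genes divided. Of 19 tested, 7 were lower and 1 higher, with a median of -0.22, against 12.4% lower and 10.9% higher over all genes. The lower ones include specific isoforms: ENO2, the neuronal enolase, at 2059 and 1917 in shHIF1A against 5844 and 6048 in shGFP (-1.58 ± 0.15), PFKFB4, which makes the activator of phosphofructokinase, at 4389 and 4202 against 11355 and 12656 (-1.48 ± 0.12), and the brain aldolase ALDOC at 3880 and 3794 against 9777 and 9219.9 (-1.31 ± 0.11). For each of these 3 genes the arrays of the lines did not overlap, with shHIF1A the lower. That held for 60.8% of all genes tested and for every gene past the threshold, so it adds nothing to their calls. HK1, which phosphorylates glucose, fell by 1.03, PFKFB3 by 0.60, the glucose transporter SLC2A1 by 0.46 and PFKP by 0.44. The abundant enzymes of the main chain did not pass, with ENO1 at -0.14, ALDOA at -0.13, GAPDH at -0.04, PGK1 at -0.22, PKM at 0.10 and LDHA at 0.01. The muscle phosphofructokinase PFKM was higher, by 0.89. In pyruvate handling PDK4, a kinase that inhibits pyruvate dehydrogenase, fell by 1.72, MPC2, a subunit of the mitochondrial pyruvate carrier, fell by 0.60, and the dehydrogenase subunit PDHA1 was higher by 0.42. Glycogen genes were lower for 4 of 9, led by the synthase GYS1 (-0.76) and the synthase-activating subunit PPP1R3C (-0.59).

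The promoters of 3 of the lowest members of the glycolysis and HIF target lists are shown, from the RefSeq promoter table, because the hypoxia response element core, ACGTG or GCGTG, is the motif HIF binds. Each is the 250 bases before the start site in GRCh38.p14, on the gene's strand, with the core in capitals. P4HA2 lies on the minus strand at chr5:132227092-132227341, ENO2 on the plus strand at chr12:6914330-6914579 and PFKFB4 on the minus strand at chr3:48556804-48557053.
P4HA2: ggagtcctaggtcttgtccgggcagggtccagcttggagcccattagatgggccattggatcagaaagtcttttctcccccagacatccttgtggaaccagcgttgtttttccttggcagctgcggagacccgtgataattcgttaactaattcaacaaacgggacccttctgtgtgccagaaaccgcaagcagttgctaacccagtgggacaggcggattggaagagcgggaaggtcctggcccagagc
ENO2: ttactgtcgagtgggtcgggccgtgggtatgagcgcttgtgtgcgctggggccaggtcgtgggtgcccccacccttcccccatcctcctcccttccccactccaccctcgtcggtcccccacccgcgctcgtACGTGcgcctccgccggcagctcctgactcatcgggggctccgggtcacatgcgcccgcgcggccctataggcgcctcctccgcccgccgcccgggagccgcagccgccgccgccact
PFKFB4: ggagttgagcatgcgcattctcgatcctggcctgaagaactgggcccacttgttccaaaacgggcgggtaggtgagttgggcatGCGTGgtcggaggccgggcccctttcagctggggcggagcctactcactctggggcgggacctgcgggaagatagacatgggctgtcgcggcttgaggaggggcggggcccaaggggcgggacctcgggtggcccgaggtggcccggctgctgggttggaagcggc
ENO2 holds the core once, starting 118 bases before the start site, and PFKFB4 once, 166 bases before it. These letters are not in the P4HA2 window. In windows of 300 bases (250 before to 50 after the start, both strands), a core was found in 40 of 49 promoters of these lists (81.6%), against 48.4% of all 27305 promoters and 59.2% of those of tested genes. Members that were lower held it in 85.2% of 27 promoters and members that did not pass in 81% of 21. In promoters of all genes lower in shHIF1A the share was 58.2%, and in those of all genes higher it was 69.6%. The motif is short, and a match is a description, not a binding site.

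The hypoxia response can also be read without any list. Genes at least 2-fold higher after 24 h of hypoxia than in normoxia in the shGFP line were chosen on arrays that are not in the 12 h comparison. In that contrast 6917 genes passed (45.4%). Of 965 hypoxia-raised genes, 512 (53.1%) were lower and 27 (2.8%) higher in shHIF1A than in shGFP at 12 h, with a median change of -0.42. Among the 196 raised at least 4-fold, 131 (66.8%) were lower and the median was -0.68. The 932 genes lowered at least 2-fold by hypoxia moved the other way: 461 (49.5%) were higher and 80 lower in shHIF1A, with a median of 0.39. Among 8329 genes with no call at 24 h, 4.9% were higher and 6.14% lower. At 3 h and 6 h the 965 genes had medians of -0.23 and -0.27. The 12 h knockdown comparison and the choice of genes share the shGFP line, though no array.

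**Figure D2:**
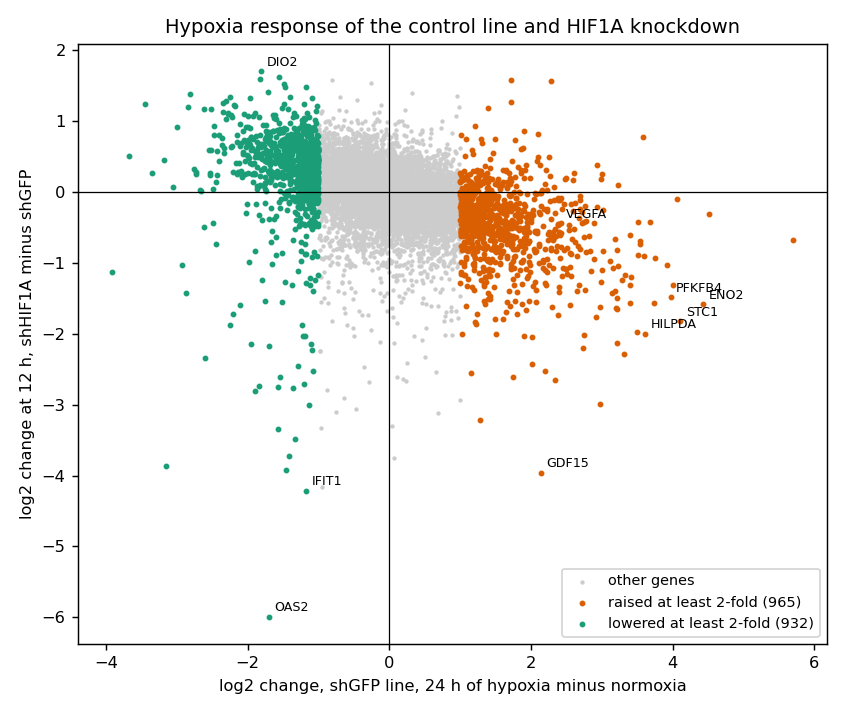
Each point is 1 of 15246 genes, with its log2 change after 24 h of hypoxia against normoxia in the shGFP line on the horizontal axis and its 12 h change, shHIF1A minus shGFP, on the vertical axis. Genes raised at least 2-fold (965) have a median of -0.42 on the vertical axis and genes lowered at least 2-fold (932) a median of 0.39. OAS2 and IFIT1 lie far below both medians on that axis.

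Interferon-stimulated genes were lower in nearly every member measured, against 12.4% of all genes. All 4 oligoadenylate synthetase genes passed (median -3.10): besides OAS2 and OASL, OAS1 was at 951 and 886 in shHIF1A against 6374 and 5602 in shGFP (-2.70 ± 0.14), and OAS3 at 1413 and 1627 against 7743 and 6450 (-2.22 ± 0.12). All 15 IFIT and IFI genes were lower (median -2.24), from IFIT1 to the DNA sensor IFI16 (-0.48), and the membrane proteins IFITM1, IFITM2 and IFITM3, close paralogs that probes may not separate, fell by 2.11, 0.50 and 0.64. Of 27 antiviral effectors 24 were lower and 0 higher (median -1.81). They include the ubiquitin-like ISG15 (-2.68) with its activating enzyme UBA7 (at least 4.43-fold) and its ligase HERC5 (-2.03). The ISG15 protease USP18 (at least 4.82-fold) and HERC6 (-2.80) are also among them. MX1 fell by 1.81 and RSAD2, which blocks viral replication, was at least 3.95-fold lower, while SP100 (-0.23) and TRIM14 (-0.07) did not pass. In the shGFP line itself, 24 h of hypoxia against normoxia lowered 4 of 4 oligoadenylate synthetase genes (median -1.27). It lowered 10 of 15 IFIT and IFI genes (median -0.96) and 23 of 27 antiviral effectors (median -1.08, 1 higher), against 24.2% of all genes. These lists were lower in shHIF1A too, whereas hypoxia-lowered genes had a positive median there.

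The inducing arm was lower too, in part. Of 20 signalling and sensor genes 10 were lower and 1 higher (median -0.57, and -0.32 with the 5 dim members at their bound). Over all genes 12.4% were lower and 10.9% higher. RIGI, a sensor of viral RNA, had a signal of 166 and 167 in shHIF1A, against 1159 and 1069 in shGFP (at least 5.67-fold lower), and IFIH1, its relative for long double-stranded RNA, 312 and 332 against 1484 and 1561 (-2.24 ± 0.16). The transcription factor IRF7 fell by 2.61 and IRF9 by 1.47, and the interferons IFNB1 and IFNL1, dim in shHIF1A, were at least 1.27-fold and 1.02-fold lower. The receptor subunits IFNAR1 (-0.31) and IFNAR2 (-0.14), the adaptor MAVS (0.13), the kinase TBK1 (-0.21) and IRF3 (0.13) did not pass, and the kinase JAK1 was higher by 0.68.

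Antigen presentation moved with them. Of 17 MHC class I and processing genes 12 were lower and 0 higher (median -0.68), against 12.4% lower over all genes. HLA-B was at 1387 and 1421 in shHIF1A against 8278 and 8146 in shGFP (-2.55 ± 0.13), HLA-F, HLA-E and HLA-C fell by 1.79, 1.81 and 1.51, the peptide transporter TAP1 fell by 2.03 and the immunoproteasome subunit PSMB9 was at least 2.93-fold lower. Class I genes are near copies of each other, so a probe may read several. B2M, the shared light chain (-0.29), and the editor TAPBP (-0.13) did not pass. CD68, named above, moved with these genes (3.04-fold lower), with PTPRC and CD3D at or below the array median in both lines.

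For the same lists the 3 lowest members with a promoter in the table are shown, with the interferon-stimulated response element core in capitals, spelled GAAANNGAAA on either strand. IFIT1 lies at chr10:89392373-89392622, IFI44L at chr1:78620198-78620447 and IFI27 at chr14:94110486-94110735, all on the plus strand.
IFIT1: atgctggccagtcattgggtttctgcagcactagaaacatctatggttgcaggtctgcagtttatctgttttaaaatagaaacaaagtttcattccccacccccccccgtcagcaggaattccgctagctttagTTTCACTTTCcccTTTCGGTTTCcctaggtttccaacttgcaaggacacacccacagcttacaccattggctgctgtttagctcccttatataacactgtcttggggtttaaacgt
IFI44L: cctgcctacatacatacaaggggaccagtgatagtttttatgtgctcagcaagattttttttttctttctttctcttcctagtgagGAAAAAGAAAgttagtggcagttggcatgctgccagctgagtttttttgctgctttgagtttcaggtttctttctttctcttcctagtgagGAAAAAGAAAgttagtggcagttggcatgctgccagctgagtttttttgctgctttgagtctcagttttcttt
IFI27: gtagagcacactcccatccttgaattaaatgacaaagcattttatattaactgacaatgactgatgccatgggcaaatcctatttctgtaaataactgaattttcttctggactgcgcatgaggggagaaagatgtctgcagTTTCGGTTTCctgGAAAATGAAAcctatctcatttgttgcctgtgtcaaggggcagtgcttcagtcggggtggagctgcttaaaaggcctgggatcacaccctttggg
Each window holds 2 cores, starting 116 and 103 bases before the start site of IFIT1, 164 and 73 before that of IFI44L, and 108 and 95 before that of IFI27. In IFI44L the stretch around the core is repeated. The core was found in 38 of 67 promoters of the interferon and MHC lists (56.7%), against 3.65% of all promoters and 3% of those of tested genes. Members that were lower held it in 60.4% of 53 promoters, and members that did not pass in 46.2% of 13. In promoters of all genes lower in shHIF1A the share was 5.23%, and in those of all genes higher it was 2.08%. The hypoxia core stood in 49.3% of the interferon and MHC promoters, near its share in all promoters (48.4%) and below that in promoters of tested genes (59.2%).

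**Figure D3:**
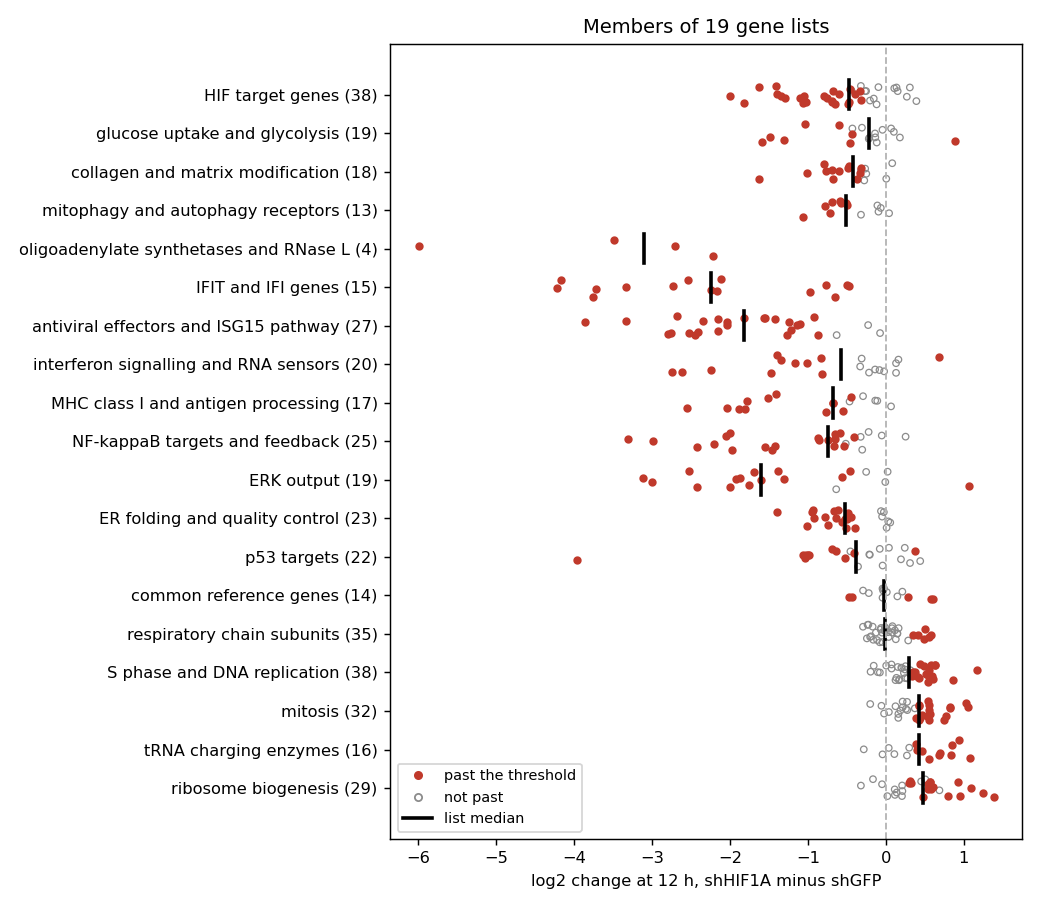
Log2 change at 12 h, shHIF1A minus shGFP, of each tested member of 19 gene lists (number tested in brackets), with filled points past the threshold, a black bar at the list median and a dashed line at the median of all genes. The IFIT and IFI list has its median at -2.24, the HIF targets at -0.47, and ribosome biogenesis at 0.47.

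Cytokines and the NF-kappaB group were lower. Of 25 genes 19 were lower and 0 higher (median -0.74), against 12.4% lower over all genes. The chemokine CCL20 was at 129 and 173 in shHIF1A against 1268 and 1101 in shGFP (at least 6.02-fold lower), CXCL8 fell by 2.43, and PTGS2, the inducible cyclooxygenase, was at 1218 and 1273 against 5012 and 5311 (-2.05 ± 0.11). IL1B fell by 1.97, IL6 by 2.0, and the feedback inhibitor NFKBIA by 0.87, while TNFAIP3, another, was at least 4.47-fold lower. Of the subunits, NFKB2 (-0.85) and RELB (-0.74) were lower, and RELA (-0.51), NFKB1 (-0.22) and REL (0.26) did not pass.

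Of 19 genes that report ERK signalling 14 were lower and 1 higher, against 12.4% lower and 10.9% higher over all genes. The list median was -1.60, and -1.49 with the 3 dim members at their bound. The ETS factor ETV5 was at 306 and 264 in shHIF1A against 2295 and 2618 in shGFP (-3.11 ± 0.13), and its relative ETV4 was at least 2.81-fold lower. The phosphatases DUSP6 and DUSP5, which switch ERK off, fell by 1.87 and 1.75, and the feedback inhibitor SPRY1 by 1.38, with its relative SPRY4 at least 1.23-fold lower. FOSL1, a subunit of AP-1, fell by 2.53 and JUN by 1.30, and 9 of 21 immediate early genes were lower, with FOS (-0.26), EGR1 (-0.02) and JUNB (-0.16) not passing. Among growth factors HBEGF, an EGF receptor ligand, was at 199 and 224 in shHIF1A against 676 and 681 in shGFP (-1.68 ± 0.11), TGFA fell by 1.17, and 8 of 19 angiogenic and growth factors were lower. CCND1, the D cyclin that answers to ERK, was at 498 and 503 against 4143 and 3872 (-3.0 ± 0.18).

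Other regulators of the G1 phase moved in both directions, 5 of 20 lower and 4 higher, against 12.4% lower and 10.9% higher over all genes. The inhibitors CDKN1A, CDKN2B and CDKN2D fell by 1.04, 1.07 and 1.13, of which CDKN1A and CDKN2D were not shared by another probe, while the kinase CDK6 was higher by 1.33 and CDK4 by 0.63. Of 22 p53 targets 10 were lower and 1 higher (median -0.38), led by GDF15, which ATF4 also induces, then GADD45A (-1.06) and SESN2 (-1.0). MDM2, which degrades p53, was at least 1.11-fold higher. Of 18 collagen and matrix genes 12 were lower and 0 higher, among them P4HB (-1.0), the collagen chaperone SERPINH1 (-0.79) and COL4A1 (-0.77).

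On 4 lists of genes for growth and division some members were higher and 0 lower, against 10.9% higher and 12.4% lower over all genes. MYC was at 10256 and 9965 in shHIF1A against 4667 and 5009 in shGFP (1.06 ± 0.10), and its antagonist MXD1 at 934 and 1078 against 2928 and 2741 (-1.50 ± 0.14). Of 29 ribosome biogenesis genes 16 were higher and 0 lower (median 0.47), with the nucleolar NOLC1 at 1617 and 1259 against 613 and 487 (1.39 ± 0.14), the assembly factor NOP16 at 1238 and 1541 against 546 and 617, and DKC1, which modifies ribosomal RNA, higher by 1.10. Of 16 enzymes that charge tRNAs 10 were higher and 0 lower (median 0.43), among them VARS1 (1.08), IARS1 (0.94), SARS1 (0.85) and LARS1 (0.83). Calls for VARS1 and IARS1 were not shared by another probe.

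Of 38 S phase genes 18 were higher and 0 lower (median 0.30). The helicase subunit MCM6 was at 8324 and 8493 in shHIF1A against 4762 and 4519.7 in shGFP (0.86 ± 0.09). MCM4 was higher by 0.63 and UNG, which removes uracil from DNA, by 1.18. The call for UNG was not shared by its other kept probes (0.12 and 0.08). PCNA (0.23) and TK1 (-0.19) did not pass. Of 32 mitosis genes 18 were higher and 0 lower (median 0.43), with CENPA, the centromere histone, at 1472 and 1562 against 749 and 736 (1.03 ± 0.11), HMMR higher by 1.05, CDC20 by 0.83 and PLK1 by 0.82, while CDK1 (-0.05) and FOXM1 (0.22) did not pass. ACACA, the first enzyme of fatty acid synthesis, was at 1604 and 1562 against 698 and 604 (1.29 ± 0.15). Of 35 respiratory chain subunits 6 were higher and 0 lower, with a median of -0.01. The share past the threshold, 17.1%, was below the 23.3% of all genes, of which 10.9% were higher.

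The endoplasmic reticulum was represented by 23 folding genes, 17 of them lower and 0 higher (median -0.52). Over all genes 12.4% were lower and 10.9% higher. ERO1A, the oxidase that HIF induces, was at 2658 and 2514 in shHIF1A against 7499 and 6182 in shGFP (-1.40 ± 0.12), the co-chaperone DNAJB9 fell by 0.93 and the chaperone HSPA5 by 0.63. Of 32 ATF4 and amino acid stress genes 11 were lower, among them PPP1R15A (-1.16) and TRIB3 (-1.03), and 7 were higher, among them MTHFD2 (0.86), PSPH (0.80) and SLC1A5 (0.80). Cholesterol genes were lower for 9 of 19, from the regulators INSIG2 and INSIG1 (-1.23) to the enzyme IDI1 (-1.01). Of 6 metallothioneins, metal-binding proteins with near-identical paralogs, 4 were lower, led by MT1G (-1.61). In iron handling BMP6, which induces hepcidin, was at 1139 and 1135.0 against 4735 and 4444 (-2.01 ± 0.12), HMOX1, which degrades heme, fell by 1.51, and ACO1, an iron sensor, was higher by 1.08.

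Most genes called at 12 h had the same sign at the earlier times. At 3 h 3832 genes passed (25.1%), 1804 higher (11.8%) and 2028 lower (13.3%) in shHIF1A. At 6 h 2765 passed (18.1%), 1279 higher (8.39%) and 1486 lower (9.75%). Of the 3556 genes past the threshold at 12 h, 2275 passed in the same direction at 3 h, which is 64% of the 12 h genes and 59.4% of the 3 h genes, and 16 passed in the opposite direction. At 6 h 2110 were shared, 59.3% of the 12 h genes and 76.3% of the 6 h genes, with 1 opposite, and 1759 (49.5%) were shared by all 3 times. These comparisons use different arrays of the same lines. OAS2 differed by -6.14 at 3 h and -6.24 at 6 h, and was at least 61.6-fold lower at 12 h. In the shGFP line its mean signal was 19206 in normoxia, before any hypoxia, then 17292 at 3 h, 18029 at 6 h and 12090.4 at 12 h, and in the shHIF1A line it was 245, 239 and 190.4 at 3, 6 and 12 h.

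The change of the effect between 3 h and 12 h was tested directly. It passed for 187 genes (1.23%), 84 upward and 103 downward, and for 57 to 168 genes without 1 array. Hypoxia genes were among those whose deficit grew: HILPDA differed by -0.97 at 3 h and -2.0 at 12 h (difference -1.03, adjusted p = 0.004254), ERO1A by -0.41 and -1.40 (difference -0.99, adjusted p = 0.00209), STC1 by -0.89 and -1.82, and BMP6 by -0.98 and -2.01. PFKFB4 moved the other way, with -2.27 at 3 h and -1.48 at 12 h (difference 0.79, adjusted p = 0.009576). Mean signals show the course: PFKFB4 in shGFP was 770.4 in normoxia and 4582, 8559 and 11988 at 3, 6 and 12 h, and in shHIF1A 949, 1922 and 4295, so it climbed in both lines. BNIP3 in shGFP was 5512 in normoxia and 12666, 19929 and 26828 at 3, 6 and 12 h, and in shHIF1A 5538, 7011 and 12831.

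Further genes at the ends of this test were calcium-binding S100A9 (-0.17 at 3 h, -1.57 at 12 h), the synaptotagmin SYT7 (0.26 and -0.97), the transporter SLC45A3 (-0.36 and -1.54), LOX (0.49 and -0.68) and TCIM (-0.98 and -2.13). The calcium channel CACNA1H was dim in shHIF1A at both times and in shGFP at 3 h, and at least 1.99-fold lower at 12 h. At the upper end stood PPP1R10 (0.23 and 1.53), ID1 (-1.50 and -0.36), CDCA7 (0.22 and 1.34), ANKRD1, HSH2D and HES2. ANKRD1 had mean signals of 407 at 3 h and 175 at 12 h in shHIF1A, against 1960 and 382 in shGFP, HSH2D of 176 and 233 against 1218 and 758, and HES2 of 189 and 333 against 312 and 263, so each was dim in shHIF1A at 1 of the times. PPP1R10 had mean signals of 869, 1252 and 1119 in shHIF1A at 3, 6 and 12 h, against 742, 599.0 and 387 in shGFP at the same times and 761.7 in shGFP in normoxia. SYT7, CDCA7, ID1, LOX and TCIM lost this call under at least 1 alternative. Between 6 h and 12 h limma called 0 genes, with 1007 at an unadjusted p under 0.05 and a smallest adjusted p of 0.0925, against 86 genes in a fit of only the compared arrays and 179 with array weights.

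**Figure D4:**
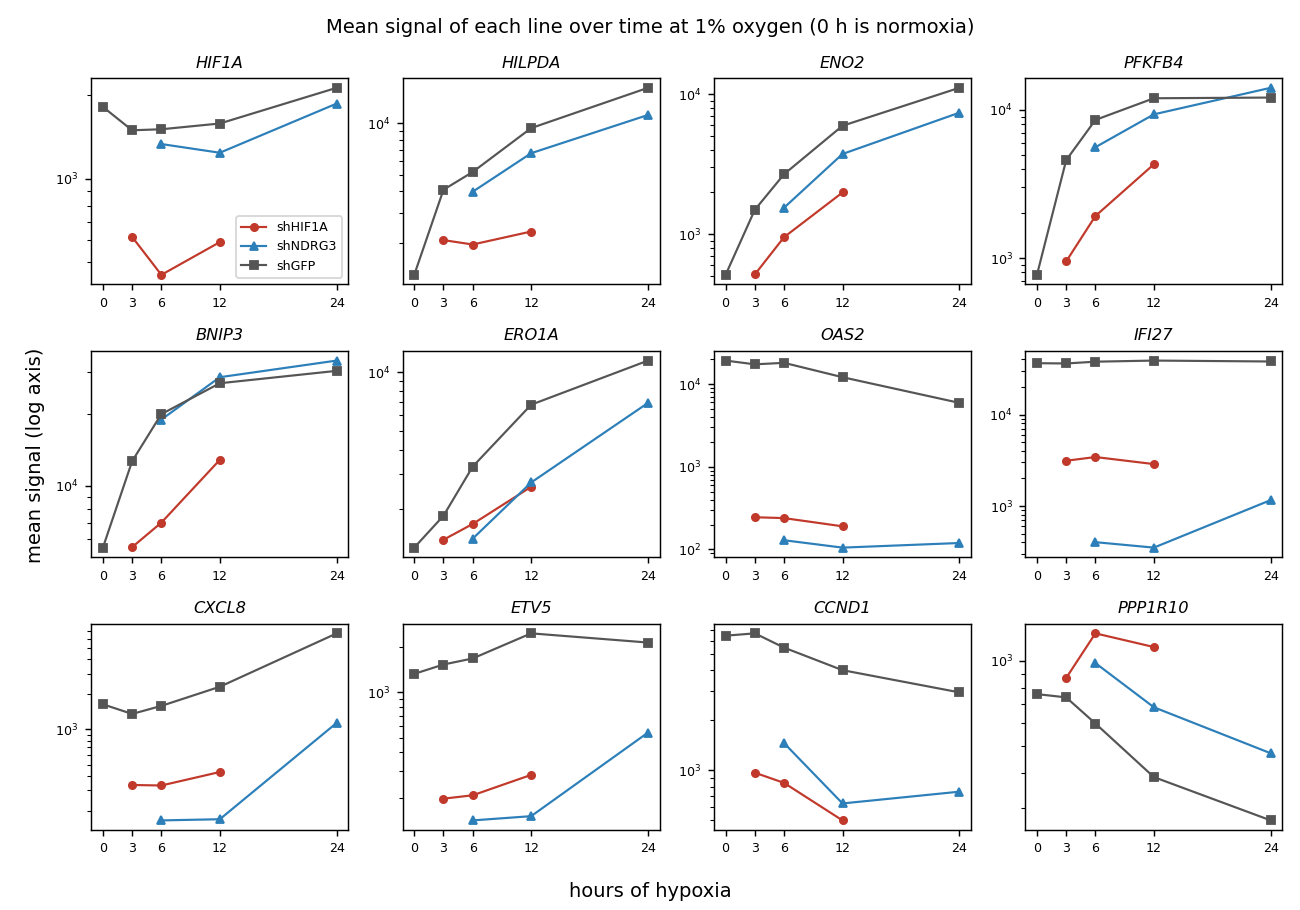
Mean signal on a log axis of 12 genes over hours at 1% oxygen, with normoxia at 0 h, in the shHIF1A (circles), shNDRG3 (triangles) and shGFP (squares) lines; each point is a mean of 2 or 3 arrays. HILPDA reached 2338 at 12 h in shHIF1A, 6681 in shNDRG3 and 9353 in shGFP, while OAS2 was at 190.4, 105 and 12090.4.

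Many of these changes were also present in the line with a hairpin against NDRG3. Both knockdown lines are set against the same 2 shGFP arrays, so their changes cannot be compared as independent results and are given side by side. Against shGFP at 12 h 4189 genes passed in shNDRG3 (27.5%). OAS2, dim in both, was at least 61.6-fold lower in each. ETV5 fell by 3.11 in shHIF1A and was at least 12.5-fold lower in shNDRG3. IFIT1 changed by -4.21 in shHIF1A and -5.15 in shNDRG3, GDF15 by -3.96 and -3.89, CCND1 by -3.0 and -2.66, MYC by 1.06 and 0.76, and DKC1 by 1.10 and 1.09. Across genes the shHIF1A and shNDRG3 arrays correlated at 0.9866 to 0.9887. The median change was -2.24 in shHIF1A and -2.75 in shNDRG3 for the IFIT and IFI genes, -0.68 and -0.56 for MHC class I, -0.74 and -1.21 for the NF-kappaB group, 0.47 and 0.55 for ribosome biogenesis, and -0.47 and -0.30 for HIF targets.

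The direct test of shHIF1A against shNDRG3 uses no shGFP array. It called 1523 genes (9.99%), 831 higher (5.45%) and 692 lower (4.54%) in shHIF1A, and 813 to 1010 without 1 array. When arrays were centred on their medians the split was 840 higher and 244 lower, and 827 and 210 with intensities as deposited. Of the 38 HIF targets 12 were lower and 5 higher in shHIF1A than in shNDRG3 (median -0.17, and -0.11 with dim members at their bound), and of the 19 glycolytic genes 7 were lower and 2 higher (median -0.25). The lower ones include HILPDA (-1.51), BNIP3 (-1.15), PFKFB4 (-1.12), FAM162A (-1.12), P4HA2 (-0.98), ENO2 (-0.91), HK1 (-0.89) and EGLN1 (-0.81). HIF targets that were instead higher in shHIF1A than in shNDRG3 were STC1 (0.94), CITED2 (0.78), CA12 (0.70), LOX (0.64) and IGFBP3 (0.55).

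At the lower end of the direct test stood HMOX1, whose mean 12 h signal was 1027 in shHIF1A, 5954 in shNDRG3 and 2919 in shGFP (shHIF1A minus shNDRG3 -2.54, adjusted p = 6.282e-12). PDK3, a kinase that inhibits pyruvate dehydrogenase, had 1022 in shHIF1A, 3465 in shNDRG3 and 1362 in shGFP (-1.76). RCOR2 (-1.71), ALDOC (-1.58) and ACTL8 (-1.58) followed. HMOX1, PDK3 and RCOR2 lay above shGFP in shNDRG3, by 1.03, 1.35 and 1.08, and ACTL8 was at least 3.74-fold above it.

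At the upper end stood BACE2, a protease, with mean signals of 2601 in shHIF1A, 279.7 in shNDRG3 and 2882 in shGFP (3.22, adjusted p = 3.81e-16). IFI27 had 2873 in shHIF1A, 351 in shNDRG3 and 38867 in shGFP (3.03, adjusted p = 0.0001007), so it was low in both knockdown lines and lowest in shNDRG3. The hormone subunit CGA differed by 2.64. SERPINB3, S100A9, the ectonucleotidase NT5E and IL6 were dim in shNDRG3 and at least 5.26-fold, 3.44-fold, 3.71-fold and 3.28-fold higher in shHIF1A. In the IFIT and IFI list 11 of 15 genes were higher in shHIF1A than in shNDRG3 and 0 lower (median 0.94, and 0.70 with dim members at their bound), in the ERK list 10 of 19 were higher and 1 lower, and in the NF-kappaB list 10 of 25 were higher and 0 lower. For MHC class I 1 of 17 differed, for tRNA charging 1 of 16 and for mitosis 1 of 32. Over all genes 9.99% differed, 5.45% higher and 4.54% lower.

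**Figure D5:**
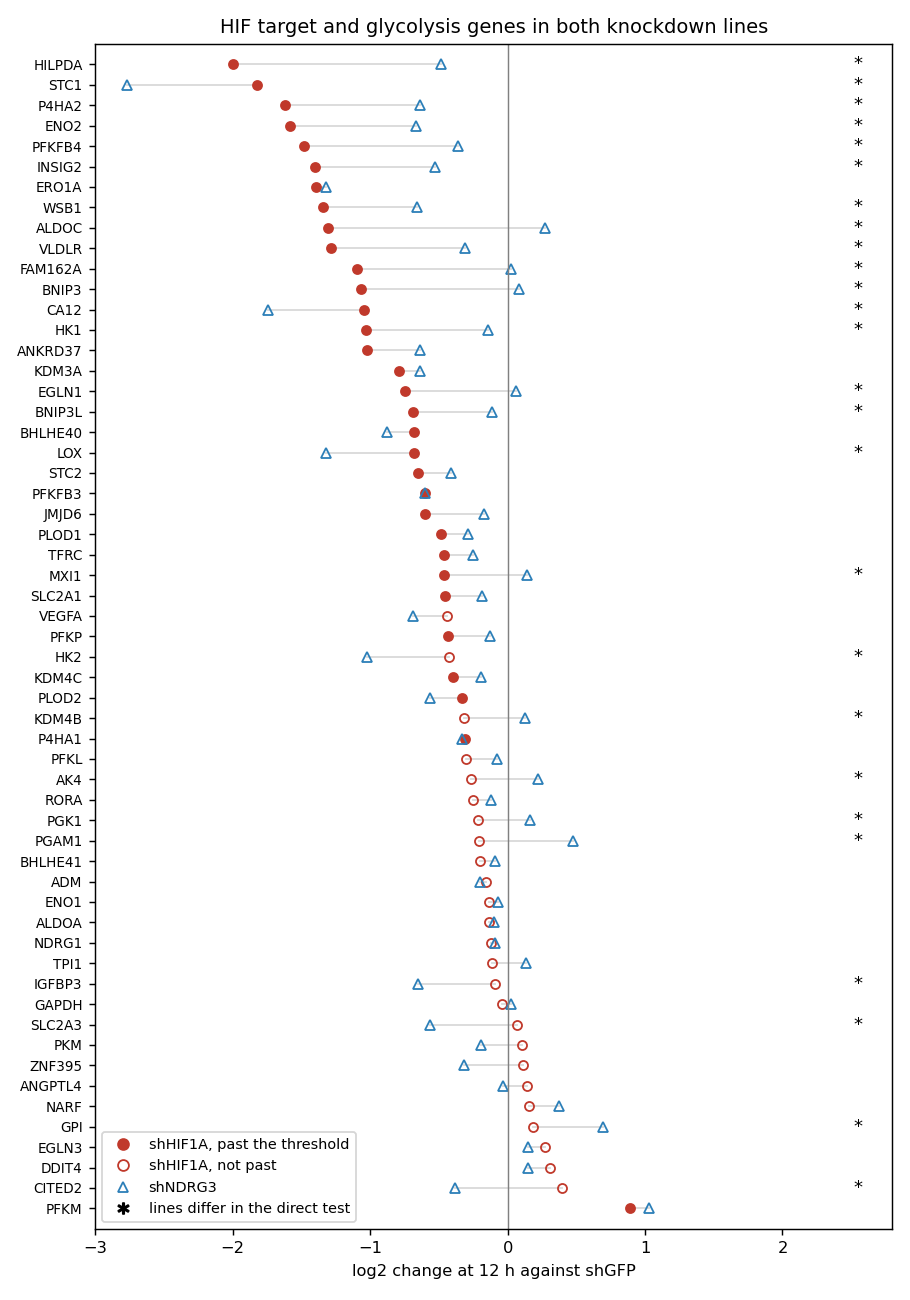
Log2 change at 12 h against shGFP of the 57 tested HIF target and glycolysis genes in shHIF1A (circles, filled where past the threshold) and shNDRG3 (triangles), ordered by the shHIF1A change; an asterisk marks genes that differed between the knockdown lines in the direct test. HILPDA lies at -2.0 in shHIF1A and -0.49 in shNDRG3, STC1 at -1.82 and -2.77, and ERO1A at -1.40 and -1.32.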

How the data were processed

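The series holds 24 Illumina bead arrays of 47231 probes each. The deposited table gives the intensity of each probe, unlogged, and per the labels' protocols RNA was column-purified, amplified and labelled with an Illumina kit. What scanner software and normalization the authors used is not given in the sources used here. Array medians of the deposited intensity ran from 115 to 150 over the series, so the table was taken as not normalized. Log2 intensities then received quantile normalization in limma 3.58.1 (R 4.3.3, statmod 1.5.0). The filter left 31100 probes, those brighter than the array median on 2 or more arrays. Background was not subtracted, which understates folds of dim genes.

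Gene names came from the platform annotation (30113 probes with 1 symbol, 8 with several, 17110 not listed). Entrez identifiers of 30074 probes matched the RefSeq gene table and 0 symbols changed. Each gene took its brightest kept probe, 15246 genes in all. One limma model (lmFit, eBayes) with a mean for each of 11 groups covered the 24 arrays (13 residual and 9.74 prior degrees of freedom); tests were two-sided, with Benjamini-Hochberg adjustment over all genes in each comparison.

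The arrays compared, the 44 gene lists and the rule for named genes were chosen with earlier results of these data known, so the lists are described by counts and medians. Named were HIF1A, NDRG3, NDRG1 and VEGFA, the 12 highest and 12 lowest genes at 12 h past the threshold with no overlap of arrays, up to 4 members per list with the smallest p, and the 6 highest and 6 lowest of each further comparison, without unnamed loci. Other list members are named as examples, chosen after their values were seen. Of 841 list genes 727 were tested, and the rest had no named probe or no probe above the filter. Of 174 named genes past the threshold, 59 had another kept probe; 39 calls were shared by it, 20 were not and 0 were opposed. Replicate numbers did not pair the samples: over 55 pairs of groups the correlation of same-numbered deviations was -0.095 to 0.278, with 5 over 0.1. The model was checked on simulated data. Promoters are from the RefSeq promoter table (GRCh38.p14). Alternatives were other normalization, background subtraction, filters, probe rule, array weights, variance trend, fits to fewer arrays and a replicate block.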

Additional observations from a re-analysis of the deposited data

Results flagged for a closer look

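The effect of the HIF1A hairpin at 12 h differed from its effect at 3 h in a direct test for 187 genes, and 34 named genes are among them. Values in brackets are the log2 change at 12 h minus that at 3 h, shHIF1A minus shGFP, with limma's adjusted p of 0.001522 to 0.04025 over the named genes. For 3 interferon-related genes the measured deficit was smaller at 12 h, MX2 (0.93), TRIM22 (0.89) and HSH2D (1.09), while IFIT1 and IFI44L had the larger measured difference at 12 h and did not pass this test. MX2 and TRIM22 were dim (under 196) in shHIF1A at both times and HSH2D at 3 h, so these values follow the shGFP signal, 4451 at 3 h and 1874 at 12 h for MX2. VLDLR, CCL20, CACNA1H, ANKRD1, S100A8 and HES2 below were also dim in 1 or more of the 4 groups, and their differences are as measured. In hypoxia and metabolism genes it was larger at 12 h for HILPDA (-1.03), STC1 (-0.93), ERO1A (-0.99), VLDLR (-0.65) and ALDOC (-0.63). PFKFB4 and the transferrin receptor had a smaller deficit at 12 h, with PFKFB4 (0.79) and TFRC (0.55). Genes that lay above shGFP at 3 h and below it at 12 h were PDK3 (-0.82), LOX (-1.16), SYT7 (-1.23), S100A8 (-0.81) and GCLC (-0.68). A deficit that was larger at 12 h was also seen for BMP6 (-1.03), HMOX1 (-0.87), S100A9 (-1.40), CCL20 (-0.91), TCIM (-1.15) and INSIG1 (-0.80). The same held for the cell cycle and stress regulators GADD45A (-0.83), MXD1 (-0.87) and CDKN2B (-0.79), and for SLC45A3 (-1.18) and CACNA1H (-1.18). Of genes higher in shHIF1A at 12 h the excess was larger than at 3 h for TBL1X (0.90), PPP1R10 (1.30), CENPA (0.63), CDC20 (0.59) and CDCA7 (1.12). The remaining 3 were ID1 (1.15), ANKRD1 (1.14) and HES2 (1.06), with a smaller deficit at 12 h for ID1 and ANKRD1 and a change of sign for HES2. No group had the 4 arrays that a test for an outlying sample needs.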

How the results depend on the processing

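HIF1A stayed lower in shHIF1A than in shGFP at 12 h under every alternative, by 1.01 (mean of its probes) to 1.59 on the log2 scale. The count at 12 h was 2530 with intensities as deposited to 4634 with array weights, and 2255 to 2642 with an array left out. The change of the effect between 12 h and 3 h was called for 187 genes: 43 with arrays centred on their medians, 37 with intensities as deposited, 98 with background subtracted, 659 with array weights and 57 to 168 with an array left out, lowest without the first shGFP 12 h array (57), the second (58) and the first shHIF1A 12 h array (59), then without the second (92) and the third and second shGFP 3 h arrays (103 and 105). Between 12 h and 6 h the 0 became 86 in a fit of only the compared arrays, 179 with array weights, and 0 to 1 with an array left out. The direct count of shHIF1A against shNDRG3 became 2427 with array weights and 813 to 1010 with an array left out. Lists with 50% or more of their members past the threshold in 1 direction numbered 15, and 23 under the stricter filter. The median of the hypoxia-raised genes was -0.47 with centred arrays and -0.56 as deposited, and the median of all genes reached at most 0.02. The cause of these moves was not tested.

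A replicate block from the titles' numbers, which do not pair the samples, gave 3501 genes at 12 h, 184 for 12 h minus 3 h and 1470 in the direct test; ESAM and KDM4C lost their calls, HES2 gained one, and no other call of a named gene at 12 h changed.

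Of 173 named genes past the threshold besides HIF1A, 147 passed under every alternative and 172 kept their direction. FGG, a fibrinogen gene near the array median, was at 0.65, and at -0.13 without a filter on low values. Near 0, NDRG2 turned to -0.0074 in the mean of its probes and ranged over -0.0516 to 0.1572 with an array left out, NDRG4 over -0.1534 to 0.1256 and NDRG1 over -0.2461 to 0.0118. Where an array was left out, the lone array was assumed to vary like the other groups.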

Other observations

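Some groups held members that moved apart in shHIF1A against shGFP at 12 h. In the YAP and TEAD group 5 of 20 genes were higher and 4 lower, against 10.9% higher and 12.4% lower over all genes. The ectonucleotidase NT5E had a signal of 724 and 732 in shHIF1A against 3312 and 2860.1 in shGFP (-2.08 ± 0.26), the secreted CCN1 441 and 471 against 1638 and 1690.0 (-1.87 ± 0.20), and ANKRD1 was at least 1.92-fold lower. FJX1 (1.12), the factor TEAD4 (0.83), PTPN14 (0.63) and AJUBA (0.55) were higher, and CCN2 (0.05) did not pass. Among S100 calcium-binding proteins 5 of 12 were lower and 0 higher. S100A9 was at 634 and 718 against 2189 and 1822 (-1.57 ± 0.14) and S100P at 6831 and 7428 against 14172 and 15238 (-1.04 ± 0.12).

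In the contractile group TPM1, a tropomyosin, had a signal of 1241 and 1242 in shHIF1A against 2604 and 2318 in shGFP (-0.98 ± 0.13). It was lower in shHIF1A than in shNDRG3 by 1.44 on the log2 scale. Of 18 genes of that group 2 were lower and 1 higher, a share no larger than over all genes (12.4% lower and 10.9% higher). Long noncoding snoRNA hosts were higher for 5 of 17 and lower for 1: SNHG8 stood at 2177 and 2417 against 1174 and 1103 (1.01 ± 0.13), and SNHG15 fell by 0.45. Of 10 genes of the RNA interference machinery 2 were higher, AGO1 (0.63) and DROSHA (0.50), and 0 lower. Of 19 NRF2 targets 3 were higher, among them ME1 (0.69) and TKT (0.65), and 4 lower. In shHIF1A at 12 h common reference genes were not all level: of 14, 3 were higher, among them RPL13A (0.61) and PPIA (0.57). The 2 lower ones were TFRC (-0.47) and POLR2A (-0.43, a call lost under 8 alternatives), while GAPDH stood at -0.04.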
